A study of Mus musculus with 12 samples.

Results

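The genes of respiratory complex I whose symbols begin with Nduf were examined in the livers and in the bone marrow-derived macrophages (BMDMs) of mice designed to keep or lose the thyrotropin receptor gene Tshr in myeloid cells. Every row of the count table with a symbol starting with Nduf was taken, rows with -ps in the symbol were left out, and no symbol was repeated, which gave 49 genes out of 55335 rows in the table. Of the 53 Nduf rows, 4 were left out by the -ps rule. The 49 genes were 36 nuclear-encoded structural subunits, 8 assembly factors (the Ndufaf genes), 2 related genes (Ndufa4 and Ndufa4l2) and 3 further copies (Ndufa11b, Ndufs6b and Ndufb4c), which GENCODE M21 lists as processed pseudogenes. The rule used names alone and no measured value.

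RNA was sequenced from 12 libraries of male mice in 4 groups of 3. Tshr f/f mice carry a Tshr allele whose 3′ part is flanked by loxP sites, and Tshr MKO mice (Tshr f/f, Lyz2-Cre) carry in addition a Cre recombinase driven by the Lyz2 promoter, which is active in macrophages and other myeloid cells such as neutrophils. All groups therefore shared the floxed allele, and the f/f littermates without Cre were the controls. The liver groups were fed a high-fat diet (HFD) for 9 weeks from 6 weeks of age and were killed 5 min after insulin (1.5 U/kg) following 8 h of fasting. The BMDM groups were marrow cells of mice recorded as 6 weeks old, or as 6 to 8 weeks old in the study's methods. The cells were differentiated for 7 days with 10 ng/mL M-CSF. Both genotypes were then treated with 1 ng/mL TSH for 24 h, so that no BMDM library without TSH was compared. Liver libraries hold the RNA of all liver cells, of which the cells that the Cre can recombine are a minority, and a lower level can come from fewer cells of a type or from less RNA per cell, which cannot be told apart in such samples.

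Complex I (NADH:ubiquinone oxidoreductase) is the entry point of electrons from NADH into the mitochondrial respiratory chain. Its N module oxidizes NADH, its Q module hands the electrons to ubiquinone, and its membrane arm, with a proximal and a distal part, moves protons across the inner membrane. A set of catalytic core subunits carries the flavin and the iron-sulfur clusters, the accessory subunits surround and stabilize them, the mitochondrial genome supplies the membrane core subunits, and assembly factors help to put the modules together without staying in the finished enzyme. Hepatocytes are rich in mitochondria, and macrophages change their use of complex I when they are activated.

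Promoters are shown for 4 members picked by their values in the genotype comparisons. Ndufb3 (ENSMUSG00000026032, chr1:58586384-58595964, plus strand), an accessory subunit of the distal membrane arm, and Ndufs4 (ENSMUSG00000021764, chr13:114287795-114388258, minus strand), an accessory subunit of the N module, lay on opposite sides of their controls in the 2 tissues. Ndufs5 (ENSMUSG00000028648, chr4:123712710-123718202, minus strand), a subunit of the proximal membrane arm, had the lowest p of all members in liver. Ndufaf1 (ENSMUSG00000027305, chr2:119655446-119662827, minus strand), a factor for the assembly of the membrane arm, was the only assembly factor with an unadjusted p under 0.05 there. The 250 bases before the RefSeq start site are given 5′ to 3′ on the strand of the gene (RefSeq, GRCm38.p6), at chr1:58586147-58586396 (plus), chr13:114388095-114388344 (minus), chr4:123718187-123718436 (minus) and chr2:119662835-119663084 (minus), with a match to a searched motif in capitals.
Ndufb3: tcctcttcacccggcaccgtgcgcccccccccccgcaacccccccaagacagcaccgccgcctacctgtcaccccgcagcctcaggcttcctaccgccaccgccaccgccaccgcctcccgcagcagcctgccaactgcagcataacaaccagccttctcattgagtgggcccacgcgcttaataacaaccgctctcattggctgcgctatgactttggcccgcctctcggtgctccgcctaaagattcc
Ndufs4: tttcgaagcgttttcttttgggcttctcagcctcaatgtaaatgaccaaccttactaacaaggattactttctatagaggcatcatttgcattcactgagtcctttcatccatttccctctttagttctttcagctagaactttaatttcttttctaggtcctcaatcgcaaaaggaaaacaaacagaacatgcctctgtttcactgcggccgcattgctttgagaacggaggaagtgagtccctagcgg
Ndufs5: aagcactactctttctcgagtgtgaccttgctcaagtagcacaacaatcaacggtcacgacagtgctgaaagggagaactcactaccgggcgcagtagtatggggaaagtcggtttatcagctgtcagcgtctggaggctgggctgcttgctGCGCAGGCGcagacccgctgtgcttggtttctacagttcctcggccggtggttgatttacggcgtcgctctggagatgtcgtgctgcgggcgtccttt
Ndufaf1: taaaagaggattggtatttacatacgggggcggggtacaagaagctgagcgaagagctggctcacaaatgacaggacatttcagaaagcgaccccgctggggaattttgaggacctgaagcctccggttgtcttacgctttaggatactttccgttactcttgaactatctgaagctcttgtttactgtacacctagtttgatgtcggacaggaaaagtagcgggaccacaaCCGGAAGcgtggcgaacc
The capitals in Ndufs5 mark an NRF1 motif (GCGCANGCG) that begins 98 bases before the start, and those in Ndufaf1 an ETS motif (CCGGAAG) that begins 18 bases before it. Ndufs4 held a YY1 motif (AAGATGG) at base 36 after its start, outside the printed stretch, and Ndufb3 held none of the 4 motifs searched. Over the window of 250 bases before to 50 after the start, on both strands, 42 promoters of 40 members could be matched in the table. NRF1 letters stood in 11 of the 42 (26.2%) against 6.25% of all 32851 promoters, ETS letters in 6 (14.3%) against 8.86%, YY1 letters in 8 (19%) against 6.34%, and the ESRRA motif TCAAGGTCA in 0 against 0.423%. These are matches of letters only.

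The libraries held 28962878 to 40954211 counts, and 28483 to 92632 of them fell on the 49 genes. Replicate 3 of the f/f BMDM libraries stood apart: its TMM scaling factor (a trimmed mean of ratios to a reference library) was 0.738 against 0.993–1.11 in the other 5 BMDM libraries, and members took 0.0807% of its counts against 0.124–0.15%. Results in BMDMs are therefore also given without it. Tshr had 0 counts in all livers and at most 5 in any BMDM library, so it could not check the genotype labels. A separate receptor list that draws on the same liver libraries places them under the opposite genotype headings: all 72 of its liver values matched a library with the other label, and 8 also matched one with the same label. The liver groups are named here by their deposited sample labels, and every liver sign below would turn if those headings were right, as would the choice of livers set against f/f BMDMs. Hepatocyte markers summed to 116655–145576 CPM (a gene's count scaled to a common library total with TMM factors) in the livers and to at most 0.173 in BMDMs, where macrophage markers summed to 11190–22164 CPM.

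The order of the members was set first by the level of each transcript. Levels between genes were compared as CPM per kilobase of the principal transcript in GENCODE M21, scaled with TMM factors over all 12 libraries. In f/f livers the 36 structural subunits had a median level of 61.1 CPM per kilobase (range 5.06–144), and the 8 assembly factors had a median of 7.1 (3.01–14.9). In f/f BMDMs the medians were 23.3 (1.38–59.1) and 3.39 (1.44–4.82). The factors that build the complex were therefore at lower levels per kilobase than most of its parts in both kinds of sample. The highest assembly factor in f/f liver, Ndufaf1 at 14.9 ± 1.16 (SD, n = 3), stood beside the lowest structural subunits Ndufab1 (14.9 ± 1.44), Ndufc1 (9.86 ± 1.28) and Ndufb2 (5.06 ± 0.182). The values of Ndufab1 and Ndufb2 rest on principal transcripts listed at 3479 and 4371 bases.

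The highest level of all members in f/f liver was that of Ndufa4, at 277 ± 30.1 CPM per kilobase. Ndufa4 was once counted among the complex I subunits and is now assigned to complex IV. Among the structural subunits in f/f liver, Ndufb10 (144 ± 1.29), Ndufb9 (135 ± 9.62), Ndufa6 and Ndufb8 (120 ± 0.87) were among the highest, and Ndufb10 and Ndufb9 differed by no more than the larger of their SDs. In f/f BMDMs the order was led by Ndufb8 (59.1 ± 11), Ndufb7 (51.4 ± 4.85) and Ndufb10 (45.7 ± 13.7), and Ndufa4 stood at 38.8 ± 4.03. The order rests on the transcript length chosen: per kilobase of the union of all exons, Ndufa4 again led in f/f liver (122), followed by Ndufb11 (96.8) and Ndufb9 (92), while Ndufb8 was at 26, and in f/f BMDMs Ndufa1 (39), Ndufb3 (34.9) and Ndufa8 (33.7) led, while Ndufb8 was at 12.8 and Ndufb7 at 7.08. The medians of structural subunits and assembly factors were then 34.9 and 5.38 in f/f liver and 13.8 and 1.94 in f/f BMDMs.

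**Figure D1:**
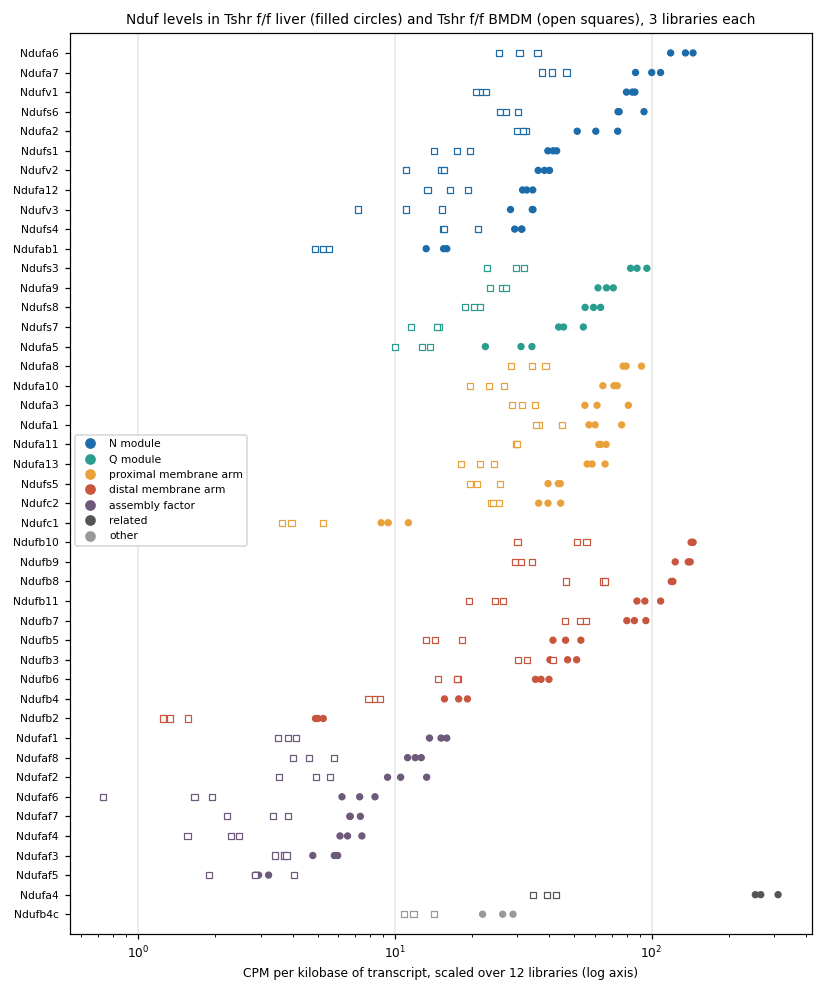
Levels of 45 Nduf genes in CPM per kilobase (x axis, logarithmic) in the 3 f/f livers (filled circles) and the 3 f/f BMDM libraries (open squares), with 1 row for each gene and 1 colour for each role. The assembly factors (3.01–14.9 in liver) lie left of most structural subunits (median 61.1), and liver lies right of BMDM for nearly all genes.

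Liver and BMDM levels were then set against each other within the f/f genotype, using edgeR's quasi-likelihood test on the counts with Benjamini-Hochberg adjustment over the 15931 genes tested. Of the 47 members tested, 44 were higher in liver at an adjusted p under 0.05, against 33.8% of all genes tested, and none was lower, also at an unadjusted p under 0.05 and with DESeq2. The median log2 fold change of liver over BMDM was 1.34 for the structural subunits (35 of 36 passed the test) and 1.28 for the assembly factors (7 of 8 passed), beside 0.05 for all genes tested. Ndufa4 had the largest difference (2.84, SE 0.173, adjusted p = 5.1e-05 by edgeR), followed by the assembly factor Ndufaf6 (2.34, SE 0.409, adjusted p = 0.00309) and the N module subunit Ndufa6 (2.12, SE 0.183, adjusted p = 1.8e-04). The smallest belonged to Ndufaf5 (0.04, SE 0.341), Ndufa4l2 (0.12, SE 1.71) and Ndufb3 (0.41, SE 0.175), which did not pass. Without f/f BMDM replicate 3, 45 members passed and the medians were 1.22 and 1.12. In that fit 10317 of 16692 genes passed in either direction. Ndufaf5 is an enzyme that hydroxylates the core subunit Ndufs7 during assembly. Tissue, diet, insulin, TSH and culture differ together between these groups and cannot be told apart.

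The size of the tissue difference depended on the scaling. By library totals alone, an alternative chosen after seeing the data, the median log2 fold change of the structural subunits was 0.49, that of all genes moved to −0.78, and 14 of 47 members were higher in liver at the adjusted threshold, beside 20% of all genes. Relative to all genes the structural subunits thus stood above the median in both. As a plain share of all counts, members took 0.18–0.191% of f/f liver libraries and 0.0807–0.15% of f/f BMDM libraries, without overlap. For Ndufb3, Ndufaf5 and Ndufa4l2 the sign turned under library totals (−0.39, −0.85 and −0.90).

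Whether complex I genes differed between the genotypes was asked in liver first. In the livers labelled Tshr MKO all 36 structural subunits had a higher fitted level than in those labelled f/f, by log2 fold changes of 0.12 to 0.68 with a median of 0.29, while the median of all 15062 genes tested was −0.01. No member passed an adjusted p under 0.05 with edgeR, as did 0% of all genes, and with DESeq2 6 of 47 members passed, beside 1.79% of all genes: Ndufs5, Ndufb3, Ndufa13, Ndufb10, Ndufb9 and Ndufb8. At an unadjusted p under 0.05 in edgeR, 29 of the 47 members tested were higher and 0 were lower, beside 5.27% and 5.18% of all genes. A log2 fold change above 0 was found for 45 of 47 members and for 49.1% of all genes. In 32 members every MKO value lay above every f/f value, which was so for 9.6% of all genes.

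Summed over the 36 structural subunits, the f/f livers had 1800, 1631 and 1604 CPM and the MKO livers 2168, 1966 and 2124 CPM, scaled within liver. The groups did not overlap. The f/f liver numbered 3 held the lowest value of the 6 livers for 22 of the 36 subunits and the f/f liver numbered 2 for 13. By library totals alone the f/f sums were 1603, 1706 and 1664 CPM and the MKO sums 2203, 2042 and 2072 CPM, again without overlap, but the order among the f/f livers turned: the f/f liver numbered 1 was then the lowest for 17 subunits, and those numbered 3 and 2 for 15 and 4. The count of 29 was 13 without MKO replicate 3, 19 without MKO replicate 1, 19 without f/f replicate 3 and 31 without f/f replicate 1. The share of all genes at an unadjusted p under 0.05 is not given for those fits. All 36 structural subunits kept a log2 fold change above 0 when any 1 liver was left out. For the subunits with separate groups this was largely set in advance.

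**Figure D2:**
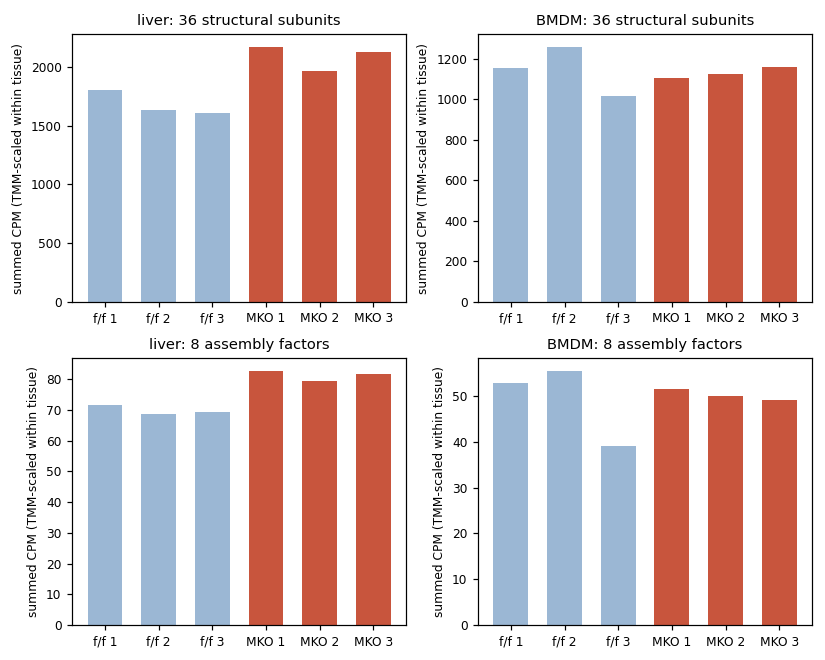
Summed CPM (y axis, TMM-scaled within a tissue) of the 36 structural subunits (top) and the 8 assembly factors (bottom) in each library, f/f in blue and MKO in red, liver at left and BMDM at right. All 3 MKO livers (1966–2168) stand above all f/f livers (1604–1800) for the structural subunits, and the BMDM groups overlap.

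The largest fitted differences of single structural subunits in liver, and also the smallest, were those of membrane arm subunits. In the distal arm, all 10 subunits had an unadjusted p under 0.05 and separate groups, with a median log2 fold change of 0.39. Ndufb3 was at 26.9, 28.6 and 22.6 CPM in the f/f livers and at 42.6, 38 and 44.4 CPM in the MKO livers, with no overlap, and its log2 fold change of 0.68 (SE 0.119) was the largest of all members (adjusted p = 0.303, edgeR). Ndufb10 was at 78.8, 77.9 and 76.8 CPM against 104, 98.7 and 100.1 CPM (0.38, SE 0.0776, adjusted p = 0.315). Its f/f values lay within a few CPM of each other, all below the MKO values. Ndufb9 was at 74.5, 63.8 and 72 CPM against 96.8, 91.4 and 96.3 CPM (0.44, SE 0.0922, adjusted p = 0.315), again without overlap.

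In the proximal arm, 9 of 9 subunits had a log2 fold change above 0 (median 0.31) and 5 had an unadjusted p under 0.05. Ndufs5 was at 22.1, 22 and 19.8 CPM in the f/f livers and at 33.1, 30.4 and 30.1 CPM in the MKO livers (0.55, SE 0.0933, adjusted p = 0.303, edgeR). The whole MKO range lay above the f/f range, by more than the spread within either group. Ndufa13 (also known as Grim-19), which is needed for a stable membrane arm, was at 61.7, 53.8 and 51.6 CPM against 85.2, 76.1 and 79.7 CPM (0.53, SE 0.101, adjusted p = 0.315). The smallest differences of the arm were 0.12 and 0.15, those of Ndufa11 and Ndufa8, whose groups overlapped.

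The peripheral arm, which holds the redox centres, had slightly smaller medians, a difference that was not tested. Of the 11 N module subunits 8 had an unadjusted p under 0.05 (median 0.29), and of the 6 Q module subunits 4 (median 0.25). Among the catalytic core, the flavin-binding Ndufv1 had a log2 fold change of 0.20 (SE 0.098), with 107.1, 97.3 and 103 CPM in f/f and 125, 106 and 121 CPM in MKO livers, and the ranges overlapped by a narrow margin. Other core subunits were Ndufv2 (0.29, SE 0.0876), Ndufs1 (0.17, SE 0.0838), Ndufs3 (0.27, SE 0.0914), Ndufs7 (0.24, SE 0.106) and Ndufs8 (0.23, SE 0.0906). Their groups did not overlap, and with an unadjusted p under 0.05 in 3 of the 7 (Ndufv2, Ndufs3 and Ndufs8) the core had a median of 0.23, beside 0.37 for the 29 accessory subunits, of which 24 had such a p. The difference between core and accessory subunits itself was not tested.

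The assembly factors were more mixed. In liver 6 of the 8 had a log2 fold change above 0, with a median of 0.20, and 1 had an unadjusted p under 0.05. That one was Ndufaf1, at 14.8, 17 and 16.2 CPM in the f/f livers and at 18.6, 20.2 and 22.8 CPM in the MKO livers (0.36, SE 0.113, adjusted p = 0.373, edgeR), without overlap. The others with higher values were Ndufaf2, a chaperone of late assembly (0.40, SE 0.196), Ndufaf6 (0.23, SE 0.224), Ndufaf4 (0.21, SE 0.114) and its partner Ndufaf3 (0.19, SE 0.164), which act on the Q module, and Ndufaf7, a methyltransferase (0.18, SE 0.127). Ndufaf8 and the Ndufaf5 it binds had lower values (−0.14, SE 0.147, and −0.09, SE 0.237). For all 7 apart from Ndufaf1 the groups overlapped, and the SEs were larger than those of most structural subunits, which have more counts.

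Set side by side, 36 of 36 structural subunits and 6 of 8 assembly factors had a log2 fold change above 0 in liver, 27 and 1 had an unadjusted p under 0.05, and 29 and 1 had separate groups. The summed CPM of the assembly factors was 71.7, 68.7 and 69.3 in f/f and 82.8, 79.3 and 81.6 in MKO livers, so the sums of both classes were separate. The medians, 0.29 and 0.20, differed by less than the range of the assembly factors, and no test over the lists was made. Outside both classes, Ndufa4 was at 142, 119 and 114 CPM against 164, 149.5 and 163 CPM (0.35, SE 0.113, adjusted p = 0.388), Ndufa4l2 was at 0.474–1.12 CPM across the livers (0.35, SE 0.442), and Ndufb4c was at 6.3–8.43 against 8.99–10.1 CPM (0.36, SE 0.157). Reads of Ndufb4c and Ndufb4 may have been split between these near-identical copies. Ndufa11b had 0 counts in every library, and Ndufs6b had 30 in all.

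**Figure D3:**
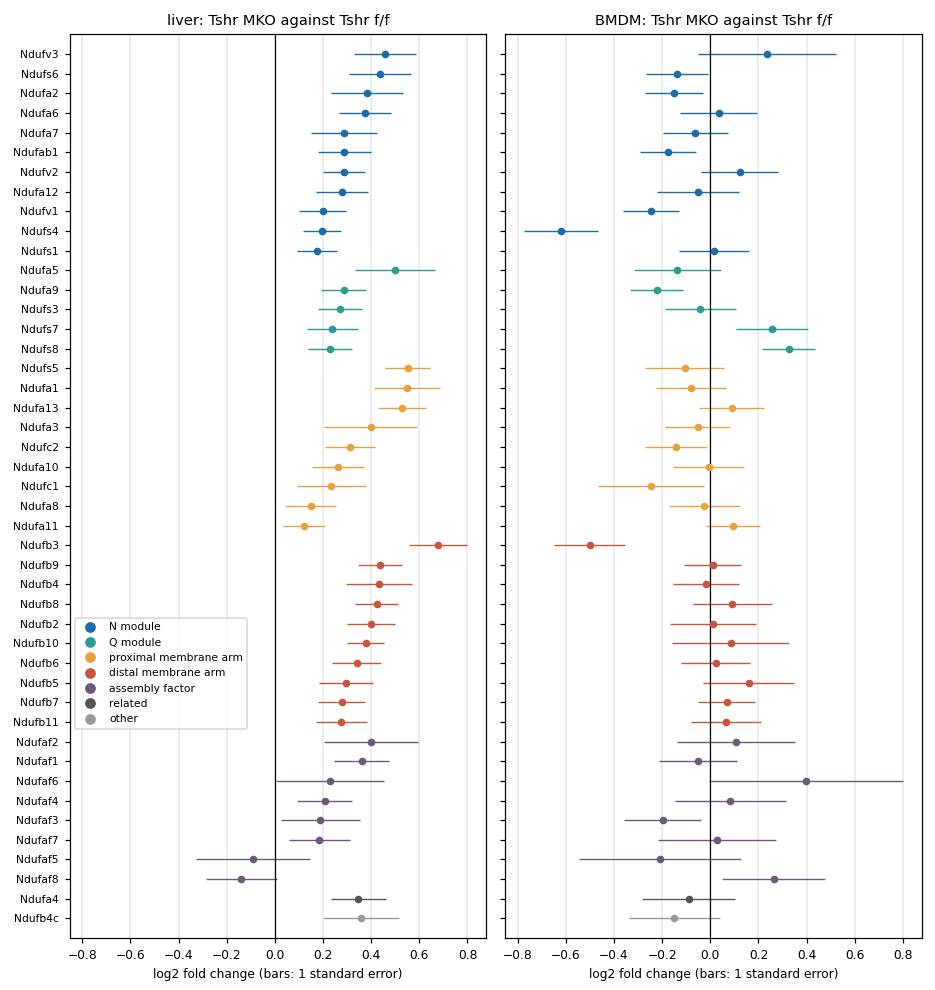
Log2 fold change of MKO against f/f (x axis, with 1 standard error) for 45 Nduf genes (rows, coloured by role) in liver (left) and BMDM (right). In liver all structural subunits drawn lie right of 0 (0.12 to 0.68), and Ndufaf5 and Ndufaf8 are the genes left of it, whereas in BMDM the values lie on both sides.

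Other mitochondrial genes were compared in the same livers. Among the 7 mitochondrially encoded complex I subunits, mt-Nd3 (0.59, SE 0.116), mt-Nd4 (0.38, SE 0.132) and mt-Nd1 (0.34, SE 0.125) had an unadjusted p under 0.05, while mt-Nd5 (−0.16, SE 0.136) and mt-Nd6 (−0.12, SE 0.108) had lower values, and the 7 summed to 29282–32228 CPM in f/f and 34088–37831 CPM in MKO livers. Sums of lists are scaled over all 12 libraries, where the structural subunits summed to 2180–2404 and 2726–2984 CPM. All mitochondrially encoded genes together took 5.55–6.8% of the counts of f/f livers and 7.72–8.15% of those of MKO livers. Of 11 complex I assembly factors with other names (such as Acad9, Ecsit and Timmdc1), 11 had a log2 fold change above 0 (median 0.23) and 4 an unadjusted p under 0.05, and of the 4 subunits of complex II, which shares no part with complex I, 4 and 3 did (median 0.25). The mitochondrial content genes (Cs, Vdac1 and 6 others) had a smaller median of 0.06, with 1 of 8 at an unadjusted p under 0.05 and sums of 1070–1163 CPM in f/f and 1217–1247 CPM in MKO livers, and 86 cytosolic ribosomal protein genes had 0.09, with 75 above 0 and 5 at such a p.

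The transcripts of known regulators of these genes did not show the same direction, and the activity of their proteins was not measured. Of 8 listed, 3 had a log2 fold change above 0 in liver (median −0.03), none was higher at an unadjusted p under 0.05, and Ppargc1b (−0.74, SE 0.277) and Gabpa (−0.20, SE 0.086) were lower at such a p. Ppargc1a had −0.57 (SE 0.286), Nrf1 0.01 (SE 0.155) and Esrra 0.26 (SE 0.113). Of the hepatocyte markers 3 of 8 had a log2 fold change above 0, and their sum was 116655–145576 CPM in f/f and 137818–140532 CPM in MKO livers. Neutrophil markers summed to 10.5–107.3 CPM in f/f and 11.9–20 CPM in MKO livers with 5 of 5 tested below 0, of which Ngp and Ltf were lower at an unadjusted p under 0.05, and macrophage markers to 181–451 and 177–424 CPM with 7 of 8 below 0. Kupffer cell markers summed to 298–804 and 259–698 CPM, those of sinusoidal endothelium to 40.5–156 and 108–139 CPM, and those of stellate cells to 37.9–350 and 128–193 CPM. Cholangiocyte markers summed to 3.98–9.79 and 5.18–5.32 CPM, with 3 of 3 below 0. The f/f liver numbered 1 stood apart in these lists, with 107.3 CPM of neutrophil markers against 10.5 and 38.1 in the other f/f livers, 40.5 of endothelial markers against 137 and 156, and 37.9 of stellate cell markers against 205 and 350. No list had a marker at 0 throughout the livers, and the part of the mitochondrial share or of cell composition in the Nduf result was not tested. The first letter of the liver sample IDs, A or B, is a possible but unexplained grouping that holds both genotypes. Within letter A (1 MKO against 2 f/f livers) 36 of 36 structural subunits and 6 of 8 assembly factors were higher in MKO, with medians of 0.33 and 0.12, and within letter B (2 against 1) 36 and 7 were, with medians of 0.38 and 0.27. For the 29 structural subunits with separate groups this direction was fixed beforehand, so the split is no check of the letter.

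The same question in TSH-treated BMDMs gave no common direction. With edgeR over 15372 genes, 17 of 36 structural subunits and 5 of 8 assembly factors had a log2 fold change above 0 in MKO, with medians of −0.01 and 0.06 beside 0.01 for all genes. No member and 0% of all genes passed an adjusted p under 0.05, and with DESeq2 1 of 46 members passed, Ndufs4, a smaller share than the 7.96% of all genes that did. At an unadjusted p under 0.05, 1 of 46 members was higher and 2 were lower, beside 7.73% and 10.2% of all genes. The groups were separate with MKO higher in 2 members and with MKO lower in 6, beside 14.8% and 14% of all genes. The counts in BMDMs are therefore near or below the background.

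The members that stood out in BMDMs were single subunits. Ndufs4, which completes the N module late in assembly, was at 35.5, 36.3 and 48.6 CPM in f/f and at 25.1, 25.8 and 27.4 CPM in MKO cells (−0.62, SE 0.154, adjusted p = 0.218, edgeR). Ndufb3 was at 31.3, 34.5 and 42.9 CPM against 24.2, 27 and 25.7 CPM (−0.50, SE 0.148, adjusted p = 0.223, edgeR). For both, every MKO value lay below every f/f value, and the highest f/f value came from f/f replicate 3, which stood apart and was the lowest for most subunits. With any 1 library left out the log2 fold change was −0.69 to −0.46 for Ndufs4 and −0.57 to −0.36 for Ndufb3. Ndufs8 (ENSMUSG00000059734), an iron-sulfur subunit of the Q module, was on the other side, at 29.2, 28.3 and 25.5 CPM in f/f and 32.5, 35.9 and 35.6 CPM in MKO cells (0.32, SE 0.112, adjusted p = 0.242, edgeR).

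**Figure D4:**
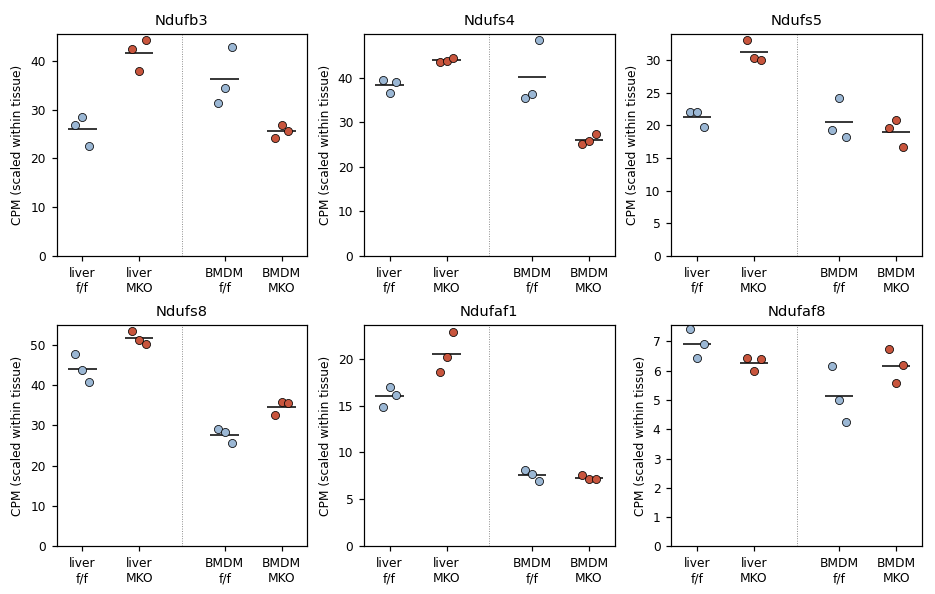
CPM (y axis, scaled within a tissue) of Ndufb3, Ndufs4, Ndufs5, Ndufs8, Ndufaf1 and Ndufaf8 in each library (points) with the group mean (line), f/f in blue and MKO in red. Ndufb3 and Ndufs4 lie higher in MKO than in f/f in liver and lower in BMDM, and Ndufs8 lies higher in both.

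Of the remaining core subunits in BMDMs, Ndufs7 (0.26, SE 0.151), like Ndufs8, had all MKO values above all f/f values, and Ndufv1 (−0.25, SE 0.115) had all below. Ndufv2 (0.12, SE 0.159), Ndufs1 (0.02, SE 0.147) and Ndufs3 (−0.04, SE 0.148) overlapped. Ndufa9 (−0.22, SE 0.109) of the Q module and the acyl carrier protein Ndufab1 (−0.18, SE 0.115) were separate with MKO lower. Among the assembly factors Ndufaf6 (0.40, SE 0.402), Ndufaf8 (0.26, SE 0.215), Ndufaf2 (0.11, SE 0.246), Ndufaf4 (0.08, SE 0.231) and Ndufaf7 (0.03, SE 0.247) had higher values, and Ndufaf5 (−0.21, SE 0.336), Ndufaf3 (−0.20, SE 0.160) and Ndufaf1 (−0.05, SE 0.163) lower ones. Ndufa4 was at −0.09 (SE 0.193). Ndufa4l2 was too low to be tested, with counts of 0, 148 and 0 in f/f and 0 in each MKO library.

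Leaving out f/f replicate 3 of the BMDMs gave 6 of 36 structural subunits and 2 of 8 assembly factors above 0, with medians of −0.11 and −0.10. At an unadjusted p under 0.05, 4 members were then lower and 1 higher, and the share of all genes is not given for that fit. The summed CPM of the structural subunits was 1155, 1256 and 1013 in f/f and 1102, 1122 and 1158 in MKO cells, and f/f replicate 3 gave the lowest of the 6 values for 22 of the 36 subunits. By library totals alone 30 of 36 structural subunits were above 0 (median 0.14), where the median of all genes had moved to 0.17. In the lists beside them, 7 of 7 mitochondrially encoded complex I subunits were above 0 (median 0.17), with none at an unadjusted p under 0.05, and 7 of 8 mitochondrial content genes were below 0 (median −0.19), with Vdac3 and Timm23 lower at such a p. Macrophage markers summed to 11190–13195 CPM in f/f and 14791–22164 CPM in MKO cells, with 4 of 8 above 0. Lyz2, whose promoter drives the Cre, was itself higher in MKO cells (0.95, SE 0.252, adjusted p = 0.218, edgeR), and why was not tested. Without Lyz2 the other 7 summed to 4644–6733 and 4129–5514 CPM and overlapped, and 6 of the 8 hepatocyte markers were at 0. The part of the macrophage markers in these values was not tested.

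The difference between the tissues was tested directly, as the genotype difference in liver minus that in BMDM in a fit of all 12 libraries over 17246 genes. The structural subunits had a median of 0.35 on the log2 scale, with 34 of 36 above 0, and the assembly factors a median of 0.14, with 6 of 8 above 0, beside 0.01 and 50.6% for all genes. No member passed an adjusted p under 0.05 with edgeR, where 0.0058% of all genes did, and 9 of 47 passed with DESeq2, beside 4.49% of all genes. At an unadjusted p under 0.05, 17 of 47 members were higher and 0 were lower, beside 7.42% and 7.12% of all genes. Ndufa4l2, whose BMDM counts came from 1 library, is among the 17 and among the 9. The other DESeq2 calls were Ndufb3, Ndufb9, Ndufv1, Ndufs6, Ndufa9, Ndufab1, Ndufs5 and Ndufs4. If the liver headings were exchanged, the difference from the separate fits, with no test, would have a median of −0.35 over the structural subunits and be −0.18 for Ndufb3 and 0.42 for Ndufs4, and these 2 would have lower MKO values in both tissues.

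Ndufb3 had the largest such difference of a structural subunit (1.18, SE 0.195, adjusted p = 0.117, edgeR). Over the alternatives its adjusted p from models across all genes (edgeR or DESeq2) ran from 5.6e-05 with DESeq2 to 0.25 without liver MKO replicate 3, with 0.0398 and 0.0225 without f/f BMDM replicates 1 and 2. Without those replicates 62 of 17755 and 341 of 17699 genes passed the adjusted threshold, against 1 of 17246 in the main fit. Ndufs4 followed (0.82, SE 0.178, adjusted p = 0.139, edgeR), with a range from 0.00369 with DESeq2 to 0.35 without BMDM MKO replicate 1, and with 0.0396 without f/f BMDM replicate 2. The others named for a low p within a tissue were Ndufs5 (0.66, SE 0.183), Ndufa9 (0.51, SE 0.14), Ndufab1 (0.47, SE 0.15), Ndufv1 (0.44, SE 0.156), Ndufa13 (0.44, SE 0.173), Ndufb9 (0.43, SE 0.146) and Ndufb10 (0.29, SE 0.273). They were picked by p within a tissue in the same libraries that enter this difference, so their values are no separate check. Members outside that list had values of similar size, such as Ndufa5 (0.64, SE 0.242), Ndufa1 (0.63, SE 0.205) and Ndufs6 (0.58, SE 0.173). Ndufs8 (−0.09, SE 0.142) and Ndufs7 (−0.02, SE 0.178), which had higher MKO values in both tissues, were close to 0, and the assembly factors Ndufaf8 (−0.40, SE 0.241), Ndufaf6 (−0.16, SE 0.465) and Ndufaf5 (0.12, SE 0.417) had wide errors. The count of 17 was 27 without f/f BMDM replicate 3, and it was 4 by library totals alone, where the median of all genes was −0.13 and that of the structural subunits 0.23. The share of all genes at an unadjusted p under 0.05 is not given for those fits, so these counts have no background beside them.

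**Figure D5:**
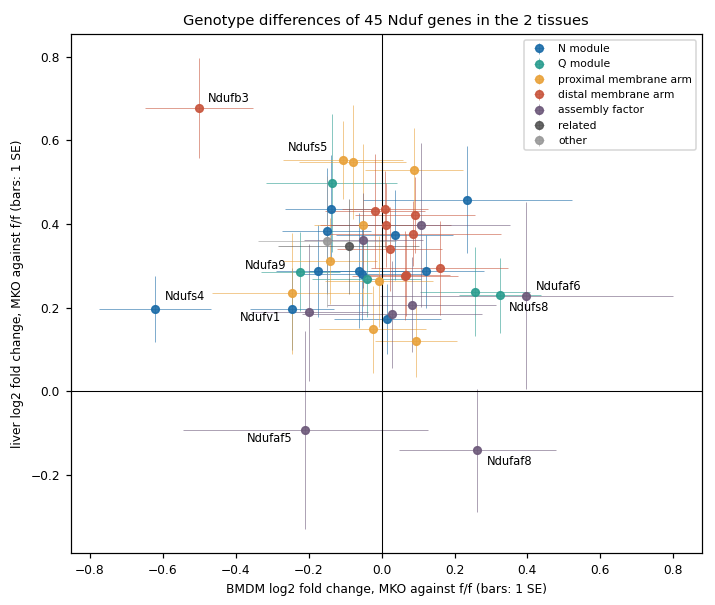
Log2 fold change of MKO against f/f in liver (y axis) and in BMDM (x axis) for 45 Nduf genes tested in both, with 1 standard error in each direction and colours by role. Nearly all genes lie above 0 on the liver axis and on both sides of 0 on the BMDM axis, with Ndufb3 and Ndufs4 at the upper left.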

How the data were processed

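RNA-seq counts per gene were used as deposited by the authors, from 12 libraries. Per the study's methods, strand-specific libraries were made, with Skewer and FastQC 0.11.2 for read quality. STAR, StringTie and mm10 are named in the submitters' processing notes without a role, and the counting program and annotation are not given in the sources used here. The authors' unit is the raw count, with 28962878 to 40954211 per library, and 3 counts equal 0.0733–0.104 CPM.

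Genes were filtered with filterByExpr, scaled with TMM and tested with edgeR 4.0.16 (quasi-likelihood, robust) in R 4.3.3, in liver, in BMDMs, between them within f/f, and for the difference of the genotype effects, with Benjamini-Hochberg adjustment over all genes tested and a threshold of 0.05. The study used the MARS model of DEGseq, which has no replicate spread. The SE is the log2 fold change over the square root of F. Groups came from the sample labels, which give separate samples but no animal numbers, so p-values measure the spread between these samples. No pair of replicates agreed within sampling noise. Alternatives were RLE, upper-quartile and no scaling factors (the last added after seeing the data), no filter, DESeq2 1.42.0, a replicate block, the ID letter, all 12 libraries in a fit and each library left out. Fits were tested on simulated data for the 3 comparisons of 2 groups. These were drawn with edgeR's own dispersion estimates and log2 fold changes of 1 or 2, so the shares below may not carry over to the measured counts. Unchanged genes made up 25.6% of the DESeq2 calls in liver, 25.9% in BMDMs and 39.1% between the tissues. With edgeR these shares were 8.44%, 3.16% and 6.67%. Of genes changed by a log2 fold change of 1, edgeR called 55% in liver, 13% in BMDMs and 3% between the tissues. Smaller changes were not simulated.

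Named were the core subunits, the assembly factors, Ndufa4, Ndufa4l2, in each genotype comparison the 5 members with the lowest p in each direction, and for the tissues the 3 highest and 3 lowest. A member that this rule would name is not reported here and is not drawn, but it is counted in the totals. Other names, such as Ndufb8, Ndufa11, Ndufa8 and the leading levels, were chosen after their values were seen. The members and lists were chosen with earlier results of these data known. Tables came from pandas 2.3.3 with numpy 2.4.6 under Python 3.11.15, and plots from matplotlib 3.10.9. Reads were not aligned again.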

Additional observations from a re-analysis of the deposited data

Results flagged for a closer look

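For 4 of the 46 members tested in both tissues, all MKO livers lay above all f/f livers and all MKO BMDM libraries lay below all f/f BMDM libraries. In all, 344 of 13244 genes (2.6%) had separate groups with opposite signs in this or the reverse direction. The 4 members are Ndufb3, with a difference between the 2 genotype effects of 1.18 on the log2 scale (SE 0.195, adjusted p = 0.117, edgeR), Ndufs4 with 0.82 (SE 0.178, adjusted p = 0.139), Ndufa9 with 0.51 (SE 0.14, adjusted p = 0.189) and Ndufab1 with 0.47 (SE 0.15, adjusted p = 0.236). None of the 4 passed the adjusted threshold in that test. They were picked by the separation of their groups in the same libraries, so the sizes of these differences are no separate check. No member had the reverse pattern.

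A row outside the 49 members also carried signal. Ndufb1-ps (ENSMUSG00000113902), left out by the -ps rule, had 7205 counts in all, more than the structural subunits Ndufb2, Ndufb4 and Ndufc1, and GENCODE M21 lists it as a bidirectional promoter lncRNA. The count table describes the same row as subunit B1, so the 36 structural subunits may lack that subunit. In liver it was at 16.3, 12.1 and 11.5 CPM in f/f and at 18.6, 18.4 and 19.2 CPM in MKO (log2 fold change 0.49, SE 0.149, adjusted p = 0.359, edgeR). In BMDMs it was at 20.9, 18.7 and 20.6 CPM in f/f and at 14.4, 15 and 15.9 CPM in MKO (−0.41, SE 0.125, adjusted p = 0.225), so it too lay above in liver and below in BMDMs, by a difference of 0.91 (SE 0.192, adjusted p = 0.129).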

How the results depend on the processing

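The direction of the liver result was the same for all 36 structural subunits under every alternative run. For the 29 with separate groups this was largely set in advance. With DESeq2, 6 members passed the adjusted threshold in liver (beside 1.79% of all genes), 1 in BMDMs (7.96%) and 9 in the difference between the tissues (4.49%), against 0 with edgeR in each. The 9 include Ndufa4l2, whose BMDM counts came from 1 library. In the simulated liver data 25.6% of the DESeq2 calls and 8.44% of the edgeR calls were unchanged genes. That simulation used edgeR's dispersion estimates and changes larger than those of the members in liver, so these shares may not carry over. By library totals alone, chosen after seeing the data, 0 members were higher and 1 was lower in BMDMs at an unadjusted p under 0.05, 30 structural subunits were above 0 with a median of 0.14, and Ndufa4 (0.11), Ndufaf1 (0.11) and Ndufs3 (0.10) turned sign. Upper-quartile factors turned Ndufaf1 (0.020) and Ndufs3 (0.024) there. For the difference between the tissues, library totals gave 4 members higher and a median of 0.23. For liver against BMDM they gave 14 members higher at the adjusted threshold, beside 20% of all genes, and 17 higher at an unadjusted p under 0.05. The medians were then 0.49 and 0.42 for structural subunits and assembly factors. The signs of Ndufaf5 (−0.85), Ndufa4l2 (−0.90) and Ndufb3 (−0.39) turned. In that comparison upper-quartile factors gave a structural median of 1.20, with Ndufaf5 at −0.11 and Ndufa4l2 at −0.075, and Ndufaf5 was at −0.029 without the filter. Why these values moved was not tested. Shares of all genes are not given beside the member counts at an unadjusted p in this section. Those counts are therefore not set against a background.

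With each library left out in turn, the members higher in liver numbered 13 to 31, the assembly median was 0.16 to 0.24 and Ndufaf5 was −0.22 to 0.023. In BMDMs 0 to 1 members were higher and 1 to 4 lower, 6 to 23 structural subunits and 2 to 6 assembly factors were above 0, and the ranges were −0.093 to 0.22 for Ndufaf4, −0.17 to 0.21 for Ndufaf7, −0.21 to 0.084 for Ndufa4, −0.10 to 0.13 for Ndufs1, −0.11 to 0.023 for Ndufaf1, −0.17 to 0.074 for Ndufs3, −0.44 to 0.11 for Ndufaf5, −0.056 to 0.26 for Ndufaf2 and −0.021 to 0.22 for Ndufv2. For the difference between the tissues 0 to 2 members passed the adjusted threshold. Ndufb3 and Ndufs4 passed without f/f BMDM replicate 2, where 341 of 17699 genes did. At an unadjusted p under 0.05, 13 to 27 members were higher and 0 to 1 lower. Of the assembly factors 3 to 7 were above 0. The structural median was 0.28 to 0.45 and the assembly median −0.0075 to 0.34, the lowest of both without f/f BMDM replicate 2. Ranges there were −0.19 to 0.34 for Ndufaf5, −0.081 to 0.084 for Ndufs7 and −0.43 to 0.13 for Ndufaf6. For liver against BMDM they were −0.47 to 7.87 for Ndufa4l2 and −0.21 to 0.34 for Ndufaf5.

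Replicate numbers are shared between the groups, but same-numbered samples did not deviate together. The correlations of their deviations over genes were −0.0655, 0.252 and −0.0291 in liver, 0.136, 0.0273 and 0.113 in BMDMs, and −0.0778, −0.0574 and 0.0014 between the tissues within f/f. With the replicate block 23 members were higher in liver, 0 higher and 2 lower in BMDMs, and 14 higher in the difference between the tissues. For liver against BMDM 43 passed the adjusted threshold, and 8787 of 15931 genes did so in either direction. The assembly factors had 1531 (Ndufaf5) to 6428 (Ndufaf4) counts over all libraries, and what set their precision was not tested. With 3 samples a group an exact permutation test of 1 gene could not pass 0.05.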
